A study of Drosophila melanogaster with 6 samples.

Results

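Of the 3566 CG-numbered genes that could be ranked in this series, 284 kept their tagged RNA among the best in both chases, and they are described here as long-lived CG-numbered genes. A CG number is the annotation number a Drosophila gene carries until it is named, and the array design gave all of these genes by that number only. A gene was ranked when its probes held a value on all 6 arrays of the authors' table and at least 1000 units at the pulse of each series. Members stood in the top 15% of the log2 ratio of the 3-hour chase to the pulse in both series, which is 535 genes per series. They lay above thresholds of -1.64 (32.1% of the pulse value) in U+actD and -1.77 (29.4%) in UO. The array held 8956 CG-numbered genes, 4490 of them with all 6 values, and 7944 named genes in all had 6 values. Members were thus chosen by their 3-hour ratios, which are given here as a description and support nothing.

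RNA decay was followed by TU-decay, a pulse-chase of tagged RNA, in whole Drosophila embryos of stage 12 to 15. All embryos carried UAS-T.g.UPRT without a GAL4 driver, are labelled wildtype, and per the methods came from either of 2 insertion lines of that transgene. They were permeabilised, given 1 mM 4-thiouridine for a 1-hour pulse at 30 °C, which tags newly made RNA in every tissue without the transgene, and chased in 10 mM uridine. The UO series was chased with uridine alone, and the U+actD series with uridine and actinomycin D, which blocks transcription. Tagged RNA was taken at the end of the pulse and once 1 or 3 hours of chase had passed, and each of the 6 groups is 1 single-channel Agilent array of RNA pooled from several samples. No group has a replicate, so the spread between the 2 series is the only error at hand. In whole embryos a change in the number of cells of a type and a change of RNA per cell cannot be told apart.

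An mRNA ends its life by loss of its poly(A) tail, removal of its cap and digestion from either end, and how soon this begins differs between mRNAs. Messengers of constitutive machines such as ribosomes and the respiratory chain are known for slow turnover in many organisms, while those of transcription factors and signalling proteins are known for fast turnover. The respiratory chain consists of 4 complexes in the inner mitochondrial membrane that pass electrons to oxygen. Some of them, but not complex II, pump protons, and ATP synthase uses the proton gradient to make ATP.

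The 2 sources of UO values differed, and this touches every UO value below. The U+actD columns of the authors' table equalled the deposited scanner signals times 1, 1.92 and 1.7664 for the pulse, 1-hour and 3-hour arrays. After these factors the U+actD spike-in transcripts exceeded their pulse reading 2.36-fold on the 1-hour array and 1.74-fold on the 3-hour array. Spike-in scaling here assumes that equal amounts were added for each array, which the methods do not state. The UO columns did not match the UO scanner files, and the 3-hour changes of the ranked genes ran against each other in these 2 sources (Spearman's rho -0.30 over 3523 genes), while U+actD and UO of the table ran together (0.57 over 3566 genes). Deviations of genes from their mean over 3 arrays showed the same: the scanner file labelled UO pulse had a rho of -0.35 with the UO pulse column and of 0.18 with the UO 3-hour column. For the scanner file labelled UO 3-hour chase these values were 0.34 and -0.08. It is not settled which source belongs to the labelled arrays, so members are described from the table and then set against the scanner files. Of 34 fixed tissue markers, 32 were on the array and 29 were above background on each pulse array, with muscle, trachea, glia, neuroblasts and epidermis complete and fat body at 1 of 3.

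Members kept a median of 47.4% of the pulse value after the 3-hour chase in U+actD (quartiles 38.8% and 67.7%) and 38.3% in UO (33.2% and 46.5%). The median gene of the whole table kept 17.1% and 20.1%. Per member the SD of the 2 log2 changes had a median of 0.29. The value was at least as high in U+actD for 221 of 284 members (77.8%), against 39.6% of the other ranked genes. The rule used both values, so nothing is read from this contrast. Which series is higher depends on the scale, and comparisons of the 2 series here and below use that of the authors' table. Scaled on the spike-in transcripts, the U+actD median of members at 3 hours was 27.2%. The plot of 3-hour changes shows that members filled the upper right corner and reached further out along the U+actD axis than along the UO axis.

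**Figure D1:**
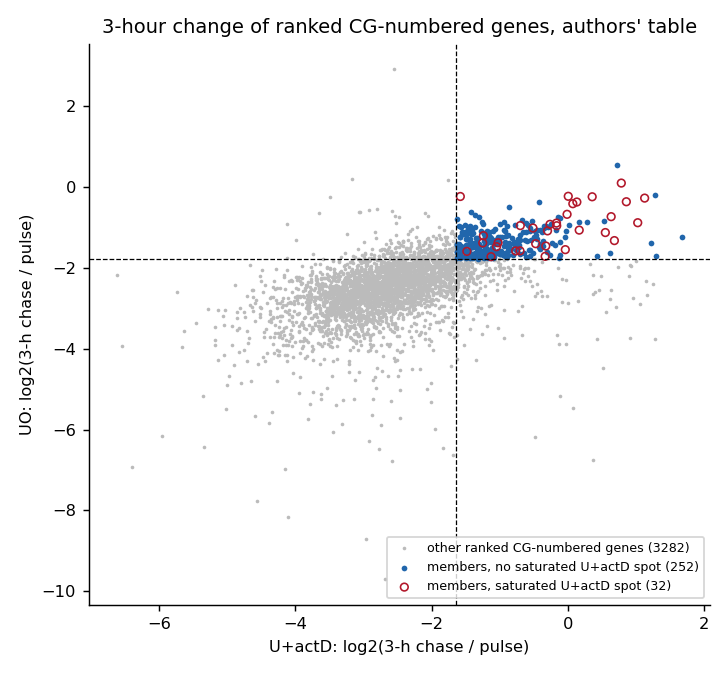
Each point is a ranked CG-numbered gene, with its log2 ratio of the 3-hour chase to the pulse in U+actD (x axis) and in UO (y axis) from the authors' table, and dashed lines mark the thresholds of -1.64 and -1.77. The 252 members without a saturated U+actD spot are filled blue points and the 32 members with one are open red circles. Of the 23 members above 0 on the x axis, 11 have no saturated spot.

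The thresholds passed through a continuous range of values. The 5 members just inside were CG13793, pch2, a meiotic checkpoint gene, CG6937, Trmt6, named for a tRNA methyltransferase subunit, and CG13369. Their limiting value was 29.4% for CG13793 and 29.6% for pch2 in UO, and 32.2%, 32.3% and 32.3% for CG6937, Trmt6 and CG13369 in U+actD. The 5 genes just outside were Cep89, CG9547, CG3663, CG3038 and Prps. Their log2 changes on the limiting side were -1.65 for Cep89 and for Prps in U+actD, and -1.77 for the other 3 in UO.

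After 1 hour of chase the members stood at or above the level of the pulse in UO, on the scale of the authors' table. Their median was 119.7% of the pulse value in UO and 92.8% in U+actD, where the median gene stood at 66.4% and 62.8%. Values above the pulse were found for 230 of 284 members (81.0%) in UO and 116 (40.8%) in U+actD, against 8.93% and 6.15% of the other 3282 ranked genes. Both series put 101 members above the pulse at 1 hour, 80 of them without a saturated U+actD spot. Between 1 and 3 hours the log2 change of members had a median of -1.61 in UO and -0.90 in U+actD, and that of other ranked genes -1.84 and -1.93. Scaled on the spike-in transcripts, 6 members were above their pulse at 1 hour in U+actD, and the medians were 39.4% for members and 25.7% for other ranked genes.

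Relative to the median gene of each array, 269 of 284 members were higher at 1 hour in U+actD and 278 in UO, with 263 in both. Of the other ranked genes 43.3%, 45.8% and 24.9% were. This 1-hour comparison shares its pulse arrays with the values that chose the members, so it is not independent of the rule. By limma on all 7944 genes, with series as a block and 2 residual degrees of freedom, no gene and no member passed a Benjamini-Hochberg adjusted p of 0.05 in the 1-hour relative change (0% of genes called higher). At an unadjusted p under 0.05 in the same limma fit, 99 members (34.9%) were higher, against 5.44% of all genes. The count of members and that of all genes rested on single arrays, and both moved up or down with the array left out. Each such fit leaves 1 array at a time point, so its counts are not given. With no series block 18 of 284 members were higher at this p, against 112 of 7944 genes. On spike-in scaled scanner signals it was 1 of 284 members, against 100 of 7944 genes. The 21 members that lay below the median gene at 1 hour did so in 1 series only, 15 in U+actD and 6 in UO.

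Among those 21, Sting, an innate immune sensor of cyclic dinucleotides, read 1531, 1551 and 712 in U+actD for the pulse, 1-hour and 3-hour arrays. In UO it read 1087, 283 and 430, so that the 1-hour value was the lowest of the 3. UQCR-14, a subunit of respiratory complex III, went the same way in UO, with 71433, 20721 and 35486, where the pulse value is the largest of its column. SLIRP2, which was not among the 21, read 2436, 1718 and 952 in U+actD but 2895, 17038 and 1220 in UO. Its 1-hour UO value was the highest of the 3, and in none of these 3 genes did the UO values fall at each step.

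Half-lives were fitted by least squares to ln values of the 3 arrays and had a median of 163 minutes in U+actD and 119 minutes in UO for members, against 66.8 and 72.1 minutes for other ranked genes. The line described the members less well than the other ranked genes. Adjusted R2 was 0.75 or more for 62.3% of members in U+actD and 21.8% in UO. Of the other 3282 ranked genes 3107 and 2953 met this value. Per the methods, many mRNAs with little or no fall had an R2 of 0.75 or less. Members were chosen for a small 3-hour fall, so nothing is read from this contrast. A half-life over 300 minutes or no fall at all was found for 67 members in U+actD and 11 in UO. On the spike-in scale of the scanner files the median half-life in U+actD was 106 minutes for members and 55.0 minutes for other ranked genes. In UO the order was turned, with 48.9 minutes for members, 55.7 for other ranked genes and 68.5 for the genes in the lowest 15% of both series.

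**Figure D2:**
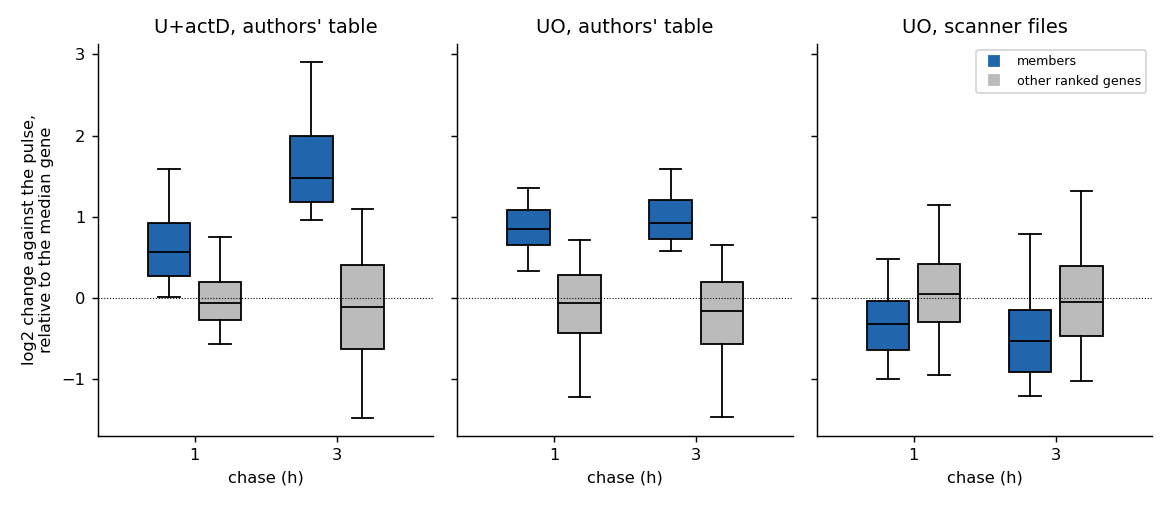
Boxes show the log2 change against the pulse relative to the median gene at 1 and 3 hours of chase for members (blue) and other ranked CG-numbered genes (grey), with the median, quartiles and whiskers from the 5th to the 95th percentile, in 3 sources. Members lie above 0 in both series of the authors' table (medians at 3 hours 1.48 in U+actD and 0.93 in UO) and below 0 in the UO scanner files (median -0.53).

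In the UO scanner files the members did not stand high. Only 48 of 283 members above background at the pulse or at 3 hours (17.0%, Wilson 95% interval 13.0% to 21.8%) lay above the median gene at 3 hours, against 47.2% of the other ranked genes. The 216 CG-numbered genes in the lowest 15% of both series of the table lay above it in 74.0% of cases. At 1 hour 66 of 283 members (23.3%) lay above the median gene of these files, against 53.8% of the other ranked genes. The share at 3 hours was between 16.2% and 22.6% under the other background corrections, filters and scalings tried. With the UO scanner signals in place of the table's UO columns the rule gave 42 genes, 19 of them members.

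The highest member in the scanner files was CG17127, with 144, 756 and 177 units at the pulse, 1 hour and 3 hours and a relative log2 change of 1.74 at 3 hours. It was followed by CG15057 (910, 1699 and 1065) at 1.67 and CG10019 (1744, 2104 and 1981) at 1.62. The lowest was CNBP, an RNA-binding protein with zinc knuckles, which read 18552, 12453 and 1679 and had a relative change of -2.03. Msh6, which recognises mismatched DNA bases, read 590, 290 and 69 and stood at -1.66. Lsm10, a subunit of the U7 particle that processes histone mRNA, read 1205, 830 and 146 and stood at -1.61. In the authors' table the same 3 genes kept 46.0%, 52.7% and 34.1% of their UO pulse value at 3 hours.

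Brightness limits part of the list. A spot counted as saturated when at least 50% of its pixels were, which held for 32 members (11.3%) on the U+actD pulse array, 13 on the 1-hour array and 3 on the 3-hour array, against 3.99% of other ranked genes at the pulse. All 13 and all 3 were also saturated at the pulse, so for them no fold can be given between the arrays concerned. For the other saturated members the pulse value is a lower bound and the percentage kept in U+actD is an upper bound. Among the 252 members without a saturated spot the median kept at 3 hours was 46.1% in U+actD and 37.9% in UO, and 86 (34.1%) were above the pulse at 1 hour in U+actD. Of the UO columns, the pulse held 14 members, the 1-hour chase 10 and the 3-hour chase 1 that lay within 10% of the largest value of their column.

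The 10 members with the highest mean of both 3-hour changes were CG14135, CG13047, nur, lncRNA:CR34335, Bacc, ND-B14.5A, CG13235, eIF3k, CG17341, which is annotated now as CG46301, and CG10035. Of these, 6 were saturated at the U+actD pulse and 5 also at 1 hour, which leaves CG14135, CG13047, ND-B14.5A and CG10035 with all U+actD values in range. CG14135 read 2104, 3389 and 3483 in U+actD and 3581, 8405 and 5236 in UO. On the scale of the authors' table it was above its pulse on all 4 chase arrays and kept 165.5% and 146.2% at 3 hours. In the scanner files it was below its pulse at 3 hours in both series, with log2 changes of -0.07 in U+actD, scaled on the spike-in transcripts, and -0.34 in UO, unscaled. Relative to the median gene of the UO scanner files it was higher, by 0.78 at 1 hour and 1.10 at 3 hours on the log2 scale. Nothing in the files describes the function of this protein-coding gene.

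CG13047 read 5470, 14968 and 13250 in U+actD and 1181, 2627 and 1038 in UO. Its 1-hour values were at least 2 times the pulse in both series, a course shared by 4 members in all, with CG15098, CG32453 and CG33269. CG10035 read 4003, 7538 and 9307 in U+actD and 13597, 20813 and 5205 in UO. Its highest array was the 3-hour chase in U+actD and the 1-hour chase in UO, and at 3 hours in UO it was below its pulse. The duplicate spots that 163 members had on the array differed by a median of 0.22 in the U+actD 3-hour log2 change, with a 90th percentile of 0.66. In the UO columns duplicate spots held identical values, so they give no measure of error there.

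Among the saturated members, nur read 58538, 123011 and 100819 in U+actD and 55033, 85196 and 59143 in UO, where the 1-hour value is the largest of its column. In the UO columns it was above its pulse at 3 hours, as CG14135 was. Its U+actD pulse is a lower bound, so its U+actD values do not show whether it was above its pulse there, and on the spike-in scale its 3-hour log2 change was -0.02. eIF3k, a subunit of translation initiation factor eIF3, read 64288, 114390 and 82323 in U+actD and 61579, 80036 and 52303 in UO. It kept at most 128.1% in U+actD and 84.9% in UO. The one long non-coding RNA among the members, lncRNA:CR34335, was saturated on all 3 U+actD arrays and read 49841, 82901 and 41387 in UO.

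Subunits of the respiratory chain were the most numerous named group of members. Of 26 ranked complex I genes, the NADH dehydrogenase that feeds electrons into the chain, 17 were members (65.4%), and of 20 ranked genes of the other complexes and ATP synthase 11 were (55.0%). Over all ranked genes 7.96% were members. These groups were formed from current gene names with results of these data known, so the counts are a description. None of the 17 complex I members was saturated in U+actD.

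The complex I members kept 37.0% to 320.0% of the pulse in U+actD at 3 hours (median 58.0%) and 30.2% to 52.5% in UO (median 38.1%). ND-B14.5A was the highest in U+actD, with 6993, 27972 and 22375, but read 2587, 2855 and 1106 in UO. The 2 series differed by 2.90 on the log2 scale for this gene, and the SD of its log2 changes was 2.05. Its place on the list rests on both values, 320.0% in U+actD and 42.8% in UO. ND-B12 read 26898, 37603 and 27238 in U+actD and 21642, 30780 and 11371 in UO. It was higher at 1 hour than at the pulse in both series and kept 101.3% and 52.5% at 3 hours.

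ND-18 read 4328, 5591 and 3685 in U+actD and 9015, 10882 and 3436 in UO. ND-B15 read 21810, 21946 and 14762 in U+actD and 7549, 10180 and 3752 in UO. Both kept more in U+actD, as did the other complex I members except ND-13A, whose log2 changes were -1.08 in U+actD and -1.04 in UO. The 9 complex I genes outside the list were ND-B14.5B, ND-B22, ND-24, ND-20, ND-51, ND-39, ND-49, ND-B16.6 and ND-AGGG. The core subunits ND-51, which binds the flavin, and ND-49 were among them. In length, the members of complex I had a median of 972 bases per gene and the other complex I genes 1386.

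**Figure D3:**
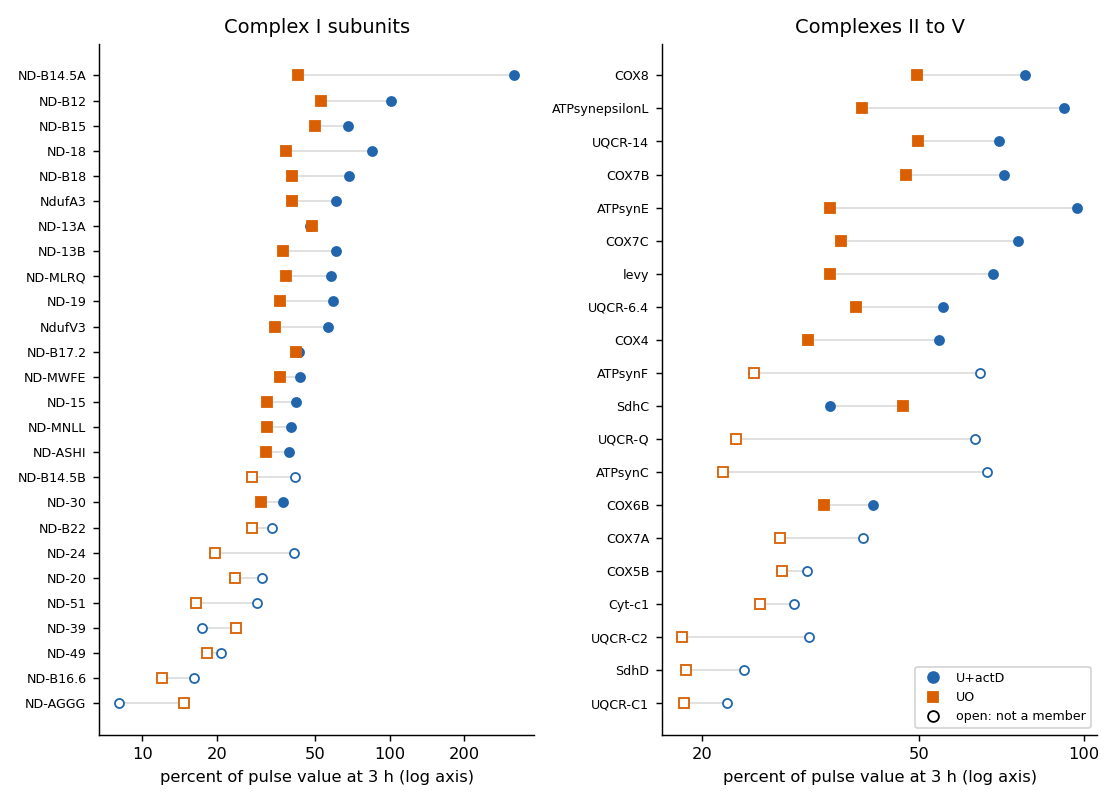
For each ranked gene of complex I (left) and of complexes II to V (right), the percentage of the pulse value left at 3 hours is shown on a log axis for U+actD (blue circles) and UO (orange squares), filled for members and open for genes outside the list. Members of complex I lie between 30.2% and 52.5% in UO, and ND-B14.5A stands alone at 320.0% in U+actD.

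The 11 members from the other complexes were COX8, COX7B, COX7C, COX4, COX6B and levy of cytochrome c oxidase, UQCR-14 and UQCR-6.4 of complex III, SdhC of complex II, and ATPsynE and ATPsynepsilonL of ATP synthase. COX8 read 31852, 47426 and 24883 in U+actD and 24705, 39408 and 12223 in UO. COX7B read 26021, 31169 and 18609 in U+actD and 11304, 17726 and 5339 in UO, and its 2 probes gave -0.25 and -0.72 in U+actD and -0.97 and -1.19 in UO. For both genes the 1-hour arrays were highest in each series. SdhC, a membrane anchor of succinate dehydrogenase, differed in that it kept more in UO, with 27302, 23293 and 9370 in U+actD and 22902, 38266 and 10675 in UO.

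ATPsynE and UQCR-14 were saturated at the U+actD pulse, so their 97.4% and 70.1% are upper bounds. In the UO scanner files none of the 28 respiratory members lay above the median gene at 3 hours. Their relative changes there ran from -1.61 for ATPsynE to -0.23 for COX7C. With genes that the array gave by name included, the table held 34 complex I genes, whose relative 3-hour change had medians of 1.28 (U+actD) and 0.62 (UO). For 33 genes of the other complexes the medians were 1.46 and 0.48.

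Genes of pre-mRNA splicing and of small nuclear particles gave 8 members among 25 ranked (32.0%). They were Lsm10, SmD2, LSm3, Sf3b5, Sf3b6, Dim1, Cwc25 and Prp38. SmD2, a ring protein of the spliceosomal snRNPs, read 5445, 4535 and 2948 in U+actD and 5732, 7505 and 2052 in UO. Sf3b5 and Sf3b6, small subunits of the complex that holds the branch point, kept 40.6% and 44.2% in U+actD and 37.9% and 44.5% in UO. Phf5a, another small subunit, was ranked and not a member, with log2 changes of -0.84 in U+actD and -2.03 in UO, and nor were the large subunits Sf3b1, Sf3b2 and Sf3b3. The 8 members had a median gene length of 834 bases and the other 17 genes 2917.

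Small numbers of members came from other RNA and protein machines. Nop10 and Gar1, which belong to the box H/ACA particles that guide pseudouridylation, and Pop5 and Rpp25, subunits of RNase P and MRP, made 4 of 6 ranked genes of these particles. Nop10 read 51730, 45166 and 27178 in U+actD and 48661, 61949 and 19176 in UO. Gar1 was saturated at the U+actD pulse and kept at most 49.1% there and 38.6% in UO.

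Of the 8 ranked subunits of augmin, which recruits gamma-tubulin to spindle microtubules, msd1, msd5 and wac were members. msd1 read 5026, 9629 and 4181 in U+actD and 15463, 23314 and 4873 in UO. wac read 12139, 8072 and 4803 in U+actD and 7380, 8250 and 2581 in UO. The first was above its pulse at 1 hour in both series and the second in UO only. Among prefoldin and CCT, chaperones for newly made actin and tubulin, the prefoldin subunits Pfdn1 and Pfdn5 and the prefoldin-like Uxt and Pdrg1 were members, 4 of 10 ranked genes. Pfdn4 and Pfdn6 and the 4 CCT subunits were ranked and were not members.

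Among translation names, eIF3k, eIF3g1 and eIF3l of initiation factor eIF3 and RpL24-like were members, 4 of 10 ranked. eIF3g1 read 46865, 64397 and 29989 in U+actD and 41197, 60052 and 13404 in UO. The proteasome gave Sem1, a subunit of the lid, and Prosbeta7, a subunit of the core, out of 6. Sem1 kept 59.7% and 37.7% at 3 hours and Prosbeta7 50.2% and 31.9%. Ufmylation, the attachment of the ubiquitin-like Ufm1, gave Ufc1 and Ddrgk1 out of 6, and LAMTOR and BLOC-1, complexes of lysosomes and related organelles, gave Lamtor4 and Blos3 out of 11.

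**Figure D4:**
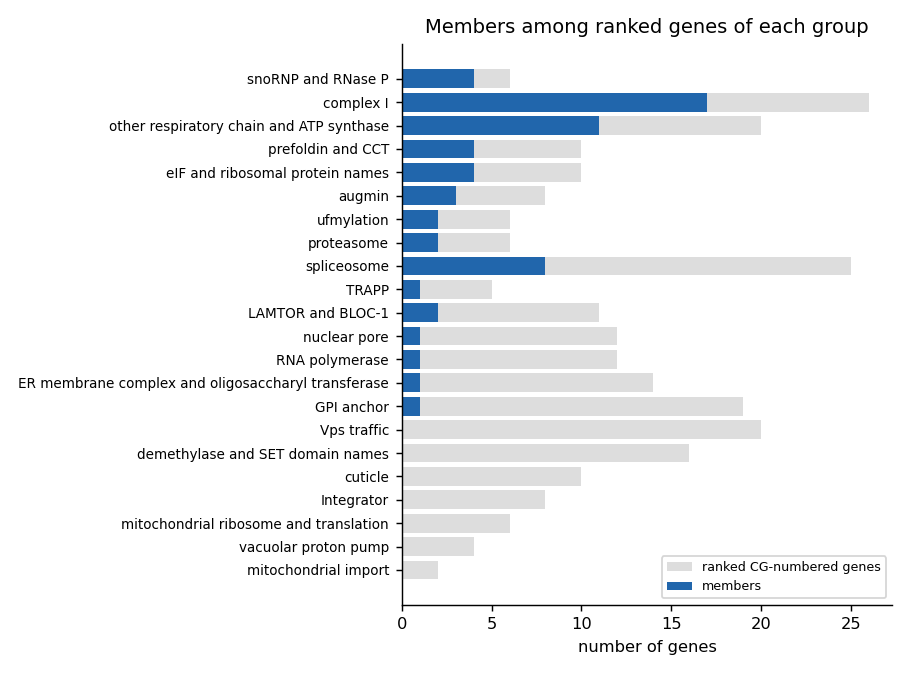
Grey bars count the ranked CG-numbered genes of each group, by current gene name, and blue bars the members among them. Complex I has 17 members of 26 and the Vps, cuticle, Integrator and demethylase or SET domain groups have 0.

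Several groups were ranked and held no member. No member was found among 20 Vps genes of endosomal traffic, 16 genes named for histone demethylases or SET domains, 10 cuticle genes of the Twdl and Vajk families, 8 Integrator subunits and 6 mitochondrial translation factors. With 7.96% of all ranked genes on the list, groups of this size hold few members or none at that share, so nothing is read from the counts of 0. The cuticle genes were split between the series, where the relative 3-hour change had medians of 3.10 (U+actD) and -0.09 (UO). One member each came from 12 RNA polymerase genes (Polr2K), 12 nuclear pore genes (Nup35), 14 genes of the ER membrane complex and oligosaccharyl transferase (EMC6), 19 genes of GPI anchors (PIG-P) and 5 of TRAPP (Bet5).

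Named members outside these groups had varied roles. Tret1-1, a trehalose transporter, kept 54.9% in U+actD and 71.1% in UO. Msh6 kept 67.0% and 52.7%, and axed, which promotes degeneration of cut axons, 82.1% and 50.4%. Glo1, the glyoxalase that detoxifies methylglyoxal, kept 81.2% and 32.9%. Enzymes of sugar chains included the neighbouring lysosomal mannosidase genes LManI, at 61.4% and 44.5%, and LManII, at 53.4% and 43.1%. The adjacent genes of neprilysin-like proteases, Nepl18 and Nepl19, kept 56.3% and 42.1%, and 42.2% and 53.2%. Grp170, a chaperone of the endoplasmic reticulum, NimC4, a receptor for apoptotic cells, and Cpsf6, a factor of mRNA 3′ end cleavage, were saturated at the U+actD pulse and kept 54.1%, 51.8% and 30.5% in UO.

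Chromatin and chromosome genes on the list included Nasp, a histone chaperone, HP4, a heterochromatin protein, Sgf11, a subunit of the SAGA deubiquitinase module, Ing5 and the insulator protein Ibf2. Nasp read 4270, 5349 and 2097 in U+actD and 2012, 2930 and 771 in UO. HP4 read 9290, 9913 and 5479 in U+actD and 8513, 10777 and 3354 in UO. Both were highest at 1 hour in each series. Sgf11 kept 46.5% and 47.4%, so that its 2 series lay close together, while the kinetochore gene Nnf1a kept 77.8% in U+actD and 36.6% in UO. Ing5 stood near the U+actD threshold, at 32.6%, and kept 35.2% in UO.

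Genes acting on RNA and on protein synthesis were also present. Mettl5, a methyltransferase of ribosomal RNA, kept 40.8% in U+actD and 36.8% in UO. AIMP1, a scaffold of the aminoacyl-tRNA synthetase complex, kept 52.8% and 47.0%, and Sbp2, needed for selenocysteine insertion, 33.0% and 33.6%. Dhps, which makes the hypusine of eIF5A, read 8669, 4067 and 3059 in U+actD and 4470, 5374 and 1670 in UO. It was the member furthest below the median gene at 1 hour in U+actD, by 0.42 on the log2 scale, and was above it in the UO table by 0.86 and below it in the UO scanner files by 0.72.

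Enzymes of metabolism among the members covered lipids, sugars and detoxification. The lipase gene Lip4 kept 61.5% and 40.7%, Dgat2, of triglyceride synthesis, 42.4% and 44.8%, and Acbp1, an acyl-CoA binding protein, 47.4% and 32.6%. Rpe, of the pentose phosphate pathway, kept 40.5% and 30.6%, and the UDP-glycosyltransferase gene Ugt35D1 67.3% and 34.0%. ClpP, a protease of the mitochondrial matrix, read 9807, 7356 and 4448 in U+actD and 7142, 8568 and 2297 in UO. Of these 6 genes Dgat2 alone kept more in UO than in U+actD.

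Members were shorter genes than the rest, a property the rule did not use. By the RefSeq annotation (Release 6 plus ISO1 MT), in which introns count, members had a median length of 1125 bases (quartiles 734 and 2058, n = 279). The other ranked genes had 2614 bases (n = 3231), and those in the lowest 15% of both series 5864. Genes under 1000 bases made up 118 of 279 members (42.3%, Wilson interval 36.6% to 48.2%) and 281 of 3231 others (8.70%, 7.8% to 9.7%). Some members were long: Rpp25 spans 17341 bases, and CG46301, with the former CG17341, 56498.

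Cut into 4 bins of equal size by length, the ranked genes held 20.4% members in the shortest bin and 5.14%, 4.10% and 2.16% in the following bins. It was 17.8% against 2.44% between the shortest and longest bin among genes under the median pulse level, and 23.9% against 1.92% among those over it. Without saturated genes it was 19.2% against 1.74%. Across ranked genes Spearman's rho of length with the 3-hour change was -0.44 in U+actD and -0.35 in the UO table over 3510 genes, and 0.26 in the UO scanner files over 3469. Genes are not independent replicates, and these values share their pulse arrays.

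**Figure D5:**
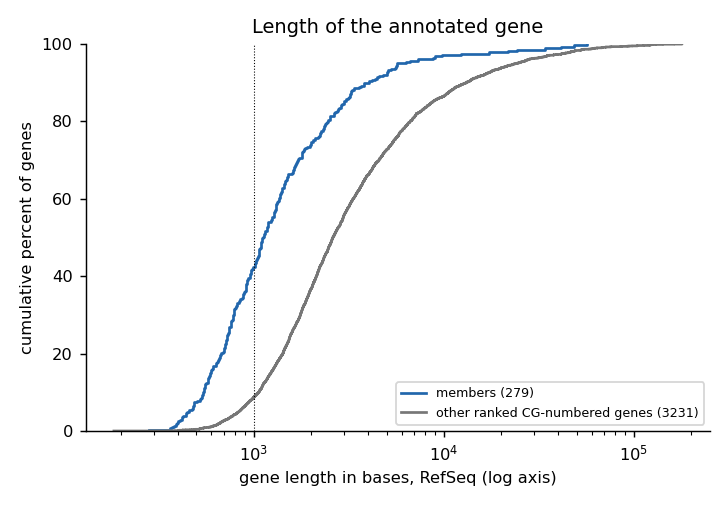
Cumulative percentage of genes (y axis) by annotated gene length in bases (x axis, log scale) for 279 members (blue) and 3231 other ranked CG-numbered genes (grey), with a dotted line at 1000 bases. At the dotted line the members stand at 42.3% and the others at 8.70%.

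Pulse level marked the members less. Their share was 9.64%, 7.18%, 5.84% and 9.19% in 4 bins of equal size by pulse level, from low to high. Of the 284 members, 278 are annotated as protein coding and 1 as a long non-coding RNA, and 5 were not matched. A current name other than a CG number was held by 128 members (45.1%), and by 45.7% of the other ranked genes. The 11 members with several probes had no probe on the other side of the median gene at 3 hours. The rule used the mean of these probe values, so nothing is read from this.

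Neighbouring members were few. In 9 cases the 2 genes of an adjacent ranked pair were both members, out of 1191 adjacent ranked pairs, a count from which nothing is read where 7.96% of ranked genes were members. Counting members no more than 3 genes apart, there were 20 runs. One run held the augmin genes msd1 and msd5 with CG9184, which kept 47.9% in UO and was saturated at the U+actD pulse. Other runs paired CG13051 with CG13069, CG13064 with CG13047, NimC4 with CG46301 and CG1161 with Prosbeta7.

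The fit over all genes is given for completeness, since its 3-hour contrasts are the ones that chose the members. On the authors' scale limma called 215 of the 284 members (75.7%) lower at 3 hours than at the pulse, where 94.7% of the 7944 genes were called lower. In the relative change 9 members (3.17%) were called above the median gene by limma, against 1.3% of genes. They were CG14135, CG13047, nur, lncRNA:CR34335, Bacc, eIF3k, CG8860, CG4364 and CG40045, and all but the first 2 were saturated at the U+actD pulse. By limma no gene was called there with no series block or with saturated genes left out. At an unadjusted p under 0.05, 115 and 248 members were higher in these 2 limma fits, against 491 of 7944 and 1042 of 7301 genes. Nothing is read from these counts.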

How the data were processed

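For each time point and series the authors made Cy3-labelled cRNA from purified tagged RNA and scanned 1 array. Scanner files give, per the file headers, foreground, background and net intensity and the percent of saturated pixels of 45220 spots. The table as deposited by the authors holds scaled intensity values. Per the methods, values of a series were scaled on spike-in RNA. To compare series, the chase/pulse ratios of each time point were also brought to the same mean across experiments. In the U+actD columns the spike-in transcripts read 2.36 and 1.74 times their pulse value. Percentages of the pulse and half-lives from these columns are therefore not on a spike-in scale. Why the UO columns differ from the UO scanner files is not given in the sources used here.

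Spots of a gene were averaged in log2. Current names, lengths and neighbours came from RefSeq (Release 6 plus ISO1 MT), and 109 names without a match were left out. A scanner signal was above background when it passed the 95th percentile of 153 negative controls, and lower values were set to that threshold. The scanner files were scaled on 4 (U+actD) or 5 (UO) spike-in transcripts, or centred on the median gene. For tests, limma 3.58.1 (lmFit, eBayes; R 4.3.3) was run on 7944 genes, with series as a block, Benjamini-Hochberg adjustment and a threshold of 0.05, and the procedure was tested on simulated data. Wilson intervals cover counting of genes only, and precision is limited by there being 6 arrays. The alternatives varied the share and pulse minimum of the rule, the probe average, the UO source, background, filter, scaling, saturation, the block and the arrays.

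Genes were named by this rule: the 10 highest members, 5 on each side of the threshold, members with a current name and known role, the 3 highest and lowest in the UO scanner files, and members whose 1-hour and 3-hour values disagreed. From the last 2 sets only examples are given. Members and lists were chosen with earlier results of these data known.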

Additional observations from a re-analysis of the deposited data

Results flagged for a closer look

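In all, 10 members without a saturated U+actD spot were above their pulse at 3 hours in U+actD and below it in UO. The difference between the series was not tested, since each series has 1 array per time point. On the log2 scale U+actD exceeded UO by 2.99 for CG32453, 2.90 for ND-B14.5A, 2.60 for CG10035, 2.23 for CG33269 and 2.13 for CG13069. The difference was 1.46 for CG13047, 1.37 for CG15098, 1.13 for CG7763, 1.02 for CG9449 and 0.95 for ND-B12. Scaled on the spike-in transcripts, 4 of these 10 members (CG13047, ND-B14.5A, CG10035 and CG32453) were still above their U+actD pulse.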

How the results depend on the processing

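The list numbered 284 genes and between 246 and 394 under the settings that kept its size within 1.5 times, but 166 when the top 10% of both series was taken and 42 with UO scanner signals in place of the UO columns. A like size did not mean the same genes. With no pulse minimum 174 of 266 genes were members, with a minimum of 500 it was 231 of 283, and with 2000 it was 228 of 246. The choice of probe changed less, with 281 of 288 for the brightest probe. The share of members above the median gene at 3 hours in the UO scanner files was 17.0% and became 22.6% with quantile normalization, and stayed within 16.2% to 21.2% otherwise. Median half-lives of 163 minutes (U+actD) and 119 minutes (UO) became 106 and 48.9 minutes on spike-in scaled scanner signals. The cause was not tested in any of these cases.

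The 215 members that limma called lower at 3 hours became 0 with no series block (3802 of 7944 genes called lower) and ranged from 77 to 249 when each array was left out in turn, with 77 without the U+actD pulse, 112 without the UO pulse and 136 without the UO 3-hour chase. The 9 members called above the median gene at 3 hours became 0 with no series block, 0 on spike-in scaled scanner signals, 75 with a pulse minimum of 1000 for all genes, and 0 with saturated U+actD genes left out, which was chosen after seeing the data. Without each array in turn they ranged from 0 to 182, with 182 without the UO 3-hour chase, 9 without the U+actD 3-hour chase and 0 for the other 4 arrays. No member was called at 1 hour under any of these settings. The labels give no replicate numbers, and the series block is what paired each chase with its own pulse.

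The scanner's ceiling limits the brightest members, and with 1 array per group no member's value has an error within its own group.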
